A study of Arabidopsis thaliana with 8 samples.

Results

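In whole Arabidopsis thaliana seedlings held at 22 °C, messages of genes that make methionine-derived glucosinolates rose between day 4 and day 7 after sowing. Messages of the genes that build root hairs fell. These 2 gene groups moved furthest among 37 gene lists, and both moved in each of 2 matched pairs of libraries. The comparison set the day 7 libraries of 2 F1 hybrids against the day 4 libraries of the same hybrids, at 22 °C only. These are 4 of the 8 libraries in the series, and the other 4 hold the same hybrids and ages at 27 °C. The hybrids were C24xCol, called the Col hybrid here, and C24xpif4-101, called the pif4 hybrid. C24 and Col are natural accessions, and pif4-101 is an insertion allele of PIF4, a bHLH transcription factor that promotes elongation growth in warmth and shade. C24 was the other parent of both hybrids. As an F1, the pif4 hybrid therefore carries the pif4-101 allele together with the PIF4 allele of C24. Counts per gene do not separate the parental alleles. All seeds were stratified for 3 days at 4 °C in the dark on half-strength MS medium, germinated for 1 day at 22 °C in 8 h light and 16 h dark, and then kept at 22 or 27 °C. Harvest was at ZT0, the time of lights on. Each library was made from pooled seedlings, and there was 1 library per hybrid, temperature and age, so each p-value is set by how these libraries scatter, which may be technical.

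As background, a seedling at these ages leaves its seed reserves behind, runs on photosynthesis in its cotyledons and starts its first true leaves. Aliphatic glucosinolates are sulfur-rich defence compounds of the mustard family, made from methionine by chain elongation, core synthesis and side-chain modification, under the transcription factors MYB28 and MYB29. Root hairs are tubular outgrowths of root epidermal cells whose walls are reinforced by extensins and loosened by expansins, under the bHLH factor RSL4.

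The 4 libraries at 22 °C differed widely in depth. Counts summed to 1664128 at day 4 and 11711681 at day 7 in the Col hybrid, and to 8880735 and 17884174 in the pif4 hybrid. Levels are given as CPM, a count relative to its library's total, scaled by TMM factors, and 1 count in the day 4 Col library was worth 0.716 CPM. The limit that a count of 0 allows, set at 3 counts, was 2.15 and 0.262 CPM at day 4 and day 7 in the Col hybrid, and 0.351 and 0.167 CPM in the pif4 hybrid, for counting error only. The 100 most abundant loci took 27.0% of counts at day 4 and 18.3% at day 7 in the Col hybrid, and 20.3% and 16.1% in the pif4 hybrid. Age and depth therefore moved in the same direction in both pairs at 22 °C. PIF4 itself measured 97.4 CPM at day 4 and 72.7 CPM at day 7 in the Col hybrid, and 79.99 and 62.7 CPM in the pif4 hybrid, with a fitted day 7 over day 4 log2 change of -0.38 ± 0.16 (SE; adjusted p = 0.0696).

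One group of genes went against the rest before any biology was considered. Of 53 tested genes whose reference symbol contains a space, 14 fell more than 4-fold in both Col pairs (22 and 27 °C), and 0 did so in both pif4 pairs. Among the 20449 tested genes without a space, 51 did so in both Col pairs. The part of the symbol spelling in these values was not tested. Before the comparison of the hybrids, the only genes named below with such a symbol are FMO GS-OX1 and FMO GS-OX3, which rose in both pairs.

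Over all genes, the change with age was large and balanced. Of 20502 genes tested with edgeR's quasi-likelihood test across all 8 libraries, with hybrid as a block, 4091 rose and 3902 fell from day 4 to day 7 at 22 °C at a Benjamini-Hochberg adjusted p under 0.05. That is a background of 39% called, 20% rising and 19% falling, against which every list below is read. At least 2-fold changes made up 7.41% (1519 genes, rising) and 5.75% (1179 genes, falling). The median log2 change of all tested genes was 0.01, and 79.2% had the same sign in both pairs. In 38% of genes both day 7 libraries lay above both day 4 libraries, and in 35.2% both lay below, so a gene whose ages do not overlap is common here. The first principal component of the 4 libraries carried 76.2% of the variance and placed both day 4 libraries on one side and both day 7 libraries on the other. The count dropped without any 1 of the 4 libraries at 22 °C. It dropped furthest without a library of the pif4 hybrid, at either age. Of 209 genes followed singly (list members past the threshold, leading genes and PIF4), 76 kept their side of the threshold whichever of the 8 libraries was left out. These are pointed out below as holding without any 1 library, and the other genes named as rising or falling lost the call without at least 1 library at 22 °C. PIF4, which did not pass, passed without either library at 27 °C and day 4.

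**Figure D1:**
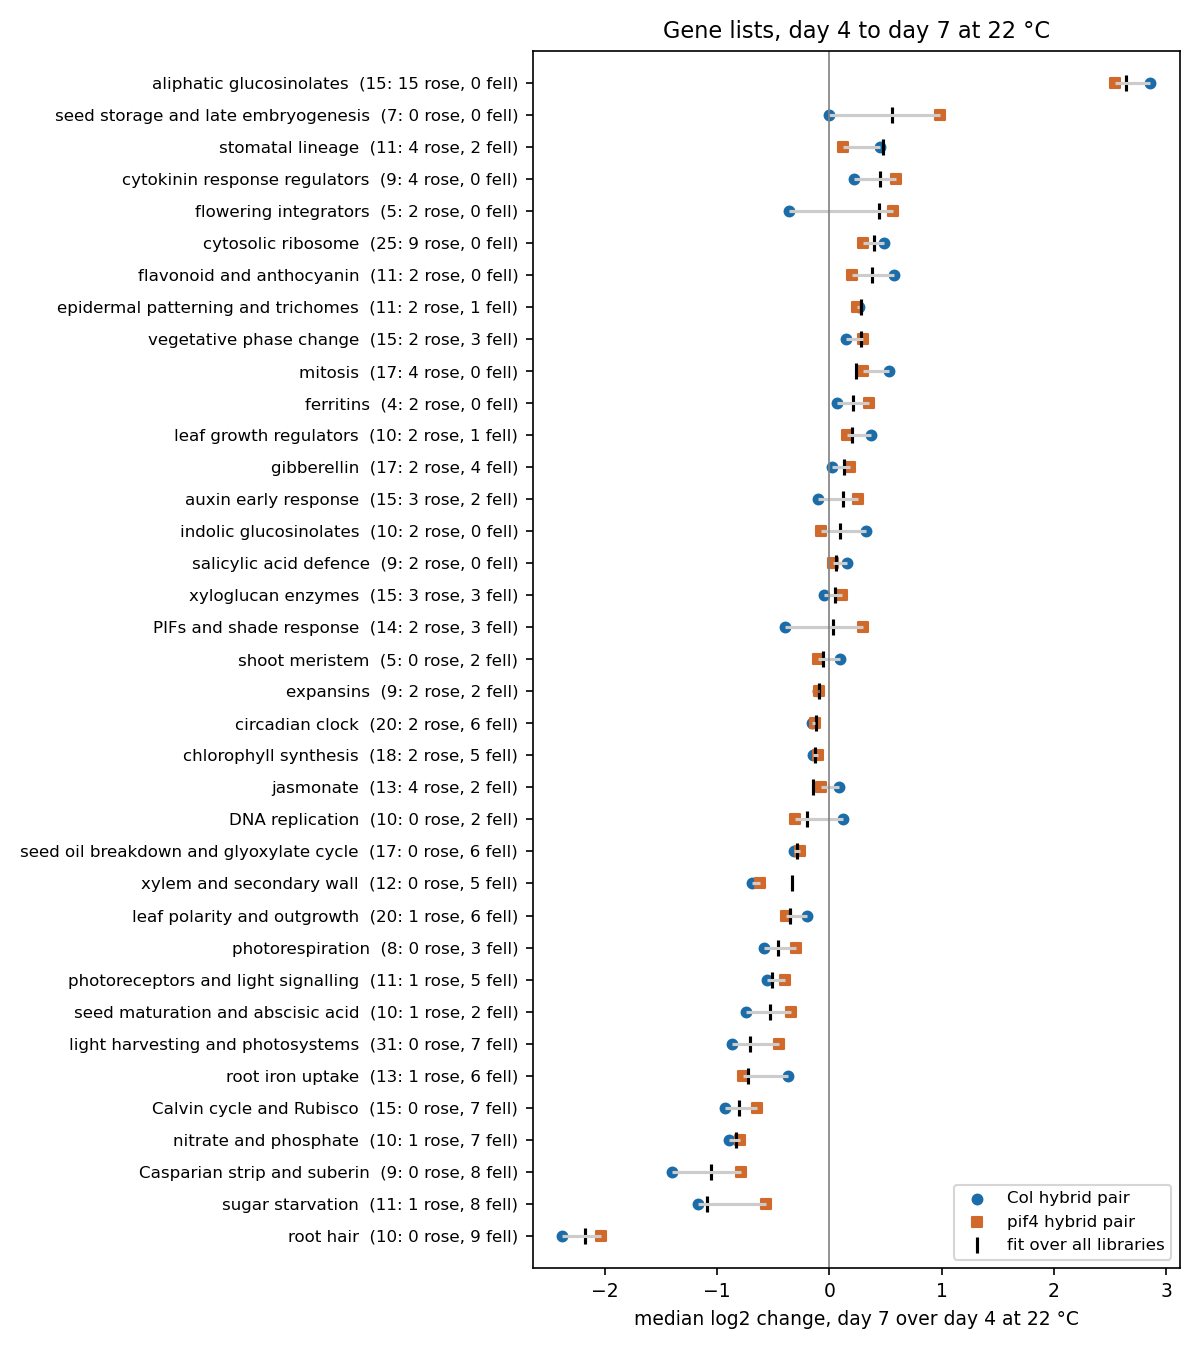
Median log2 change from day 4 to day 7 at 22 °C of each gene list (one line per list, with the genes tested, rising and falling in brackets), as the median of the Col pair's ratios (circles), of the pif4 pair's ratios (squares) and of the fitted changes (black ticks). Aliphatic glucosinolates lie furthest to the right, with a fitted median of 2.65, and root hair genes furthest to the left, at -2.18.

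All 15 tested genes of aliphatic glucosinolate synthesis rose, with a median log2 change of 2.65, and none fell. The 16th gene listed, AOP3, was at or near 0 counts in the 4 libraries and was not tested. Summed over the list, the level went from 342 to 2101 CPM in the Col hybrid and from 437 to 2167 CPM in the pif4 hybrid. The medians of the pairs' own log2 ratios were 2.86 (Col) and 2.55 (pif4).

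The furthest riser of the list, and of all called genes that averaged 5 CPM or more at 22 °C, was AOP2 (chr4:1351688-1354096, minus strand, TAIR10.1), a dioxygenase that converts methylsulfinylalkyl side chains into alkenyl ones. AOP2 measured 13.6 CPM at day 4 and 258 CPM at day 7 in the Col hybrid, and 9.13 and 323 CPM in the pif4 hybrid. Both day 7 libraries stood far above both day 4 libraries, and the log2 change was 5.0 ± 0.31 (SE; adjusted p = 1.94e-07). FMO GS-OX3, a flavin monooxygenase that oxidises the side-chain sulfur one step before AOP2, went from 1.43 to 40.6 CPM in the Col hybrid and from 2.34 to 50.5 CPM in the pif4 hybrid. Its ages did not overlap, and its log2 change was 4.55 ± 0.26 (SE; adjusted p = 1.33e-07), on 2 counts in the day 4 Col library. Its relative FMO GS-OX1 went from 1.43 to 39.3 CPM in the Col hybrid and from 5.39 to 46.7 CPM in the pif4 hybrid, a log2 change of 3.34 ± 0.23 (SE; adjusted p = 3.87e-07).

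Chain elongation genes rose as well, by unequal amounts. BCAT4, the aminotransferase that starts the chain elongation of methionine, measured 14.3 CPM at day 4 and 238 CPM at day 7 in the Col hybrid, and 28.6 and 238 CPM in the pif4 hybrid. Its log2 change was 3.43 ± 0.22 (SE; adjusted p = 2.57e-07), and day 7 was the higher age in both hybrids. MAM1 (chr5:7703041-7706973), a methylthioalkylmalate synthase of the same cycle, measured 61.6 CPM at day 4 and 412 CPM at day 7 in the Col hybrid, and 73.5 and 430.1 CPM in the pif4 hybrid, a log2 change of 2.65 ± 0.17 (SE; adjusted p = 2.58e-07). Its neighbour MAM3 (chr5:7718118-7721866), which makes longer chains, went from 23.6 to 108 CPM in the Col hybrid and from 41.9 to 97.5 CPM in the pif4 hybrid, a smaller log2 change of 1.59 ± 0.20 (SE; adjusted p = 9.85e-05). Neither gene had overlapping ages.

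For the core structure, CYP79F1 (chr1:5608682-5612064, plus strand) turns the elongated methionine into an aldoxime, and it measured 10.02 CPM at day 4 and 167 CPM at day 7 in the Col hybrid, and 14.3 and 167 CPM in the pif4 hybrid. The day 7 libraries were alike at 167 CPM, and the log2 change was 3.8 ± 0.22 (SE; adjusted p = 1.47e-07). The adjacent paralog CYP79F2 (chr1:5605044-5607498, plus strand) went from 5.01 to 37.2 CPM in the Col hybrid and from 12.9 to 28.1 CPM in the pif4 hybrid, a log2 change of 1.59 ± 0.26 (SE; adjusted p = 0.00044). The pair lie side by side and are close copies, so the split of reads between them is uncertain. CYP83A1, the next enzyme, measured 43.7 CPM at day 4 and 341 CPM at day 7 in the Col hybrid, and 55.9 and 341 CPM in the pif4 hybrid, with a log2 change of 2.77 ± 0.18 (SE; adjusted p = 2.04e-07). The sulfotransferases SOT17 and SOT18, which complete the core, changed by 2.5 and 1.69. Smaller rises were seen for SUR1, a C-S lyase shared with indolic glucosinolates (1.06 ± 0.14, adjusted p = 0.000152), and for the glycosyltransferase AT2G31790 (1.01 ± 0.15, adjusted p = 0.000268). The ages of these genes did not overlap in any case.

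Messages of the activators MYB29 and MYB28 rose as well. MYB29 went from 2.15 to 27.1 CPM in the Col hybrid and from 3.28 to 30.7 CPM in the pif4 hybrid, a log2 change of 3.43 ± 0.33 (SE; adjusted p = 8.51e-06). MYB28 started higher and changed less, from 36.5 to 71.7 CPM in the Col hybrid and from 45.2 to 74.4 CPM in the pif4 hybrid, with a log2 change of 0.84 ± 0.18 (SE; adjusted p = 0.00259). For both factors, each day 7 library lay above each day 4 library. The calls of 14 of the 15 genes of the list held without any 1 library, and that of MYB28 was lost without the pif4 hybrid at day 4.

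**Figure D2:**
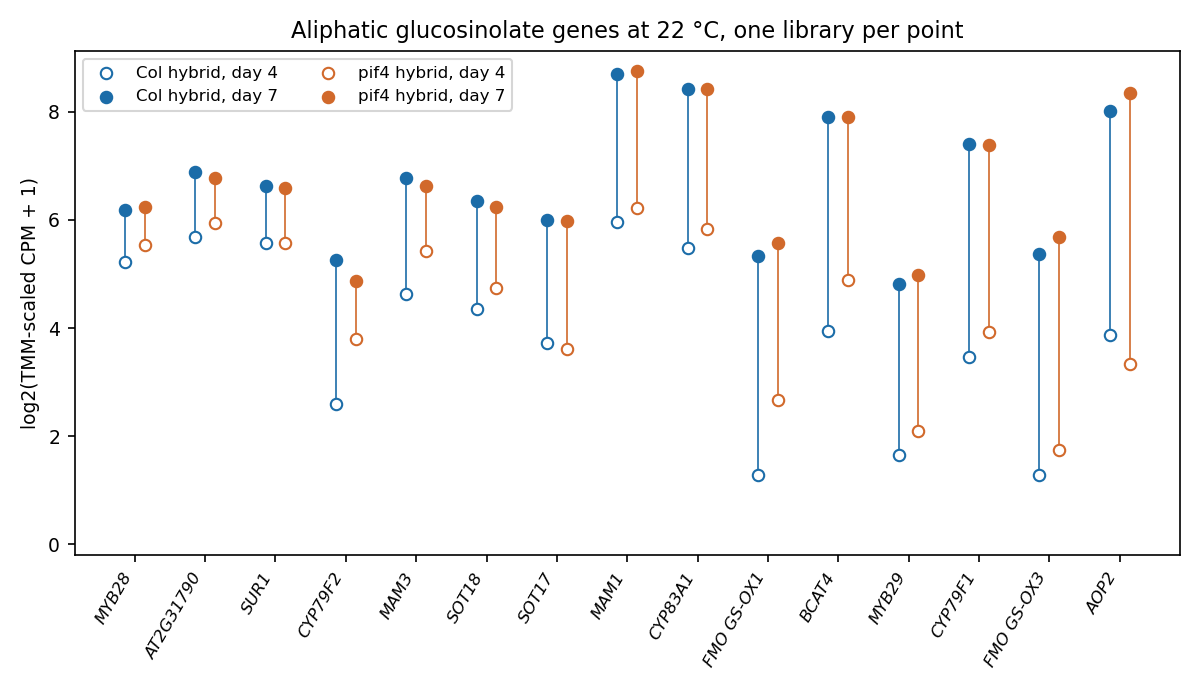
Level of each aliphatic glucosinolate gene on the log2(TMM-scaled CPM + 1) scale, one point per library at 22 °C, with day 4 open and day 7 filled and a line joining the ages of a hybrid, ordered by fitted change. The day 7 point is above the day 4 point for each gene in both hybrids, and the longest line is that of AOP2 in the pif4 hybrid (9.13 to 323 CPM).

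Indolic glucosinolates, made from tryptophan with partly the same late enzymes, moved less. Of 10 tested genes, 2 rose and 0 fell, with a median log2 change of 0.09. MYB34, an activator of the branch, went from 23.6 to 55.3 CPM in the Col hybrid and from 29.2 to 59.3 CPM in the pif4 hybrid, a log2 change of 1.12 ± 0.18 (SE; adjusted p = 0.000487), and CYP79B3, which makes indole aldoxime, changed by 0.86 ± 0.17 (SE; adjusted p = 0.00131). CYP83B1, the following enzyme, did not pass the test, at -0.02. The call of MYB34 held without any 1 library, and that of CYP79B3 was lost without the pif4 hybrid at day 4.

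The other leading risers lay outside the aliphatic glucosinolate list. GSTF11, a glutathione S-transferase, measured 1.43 CPM at day 4 and 24.6 CPM at day 7 in the Col hybrid, and 1.64 and 34.9 CPM in the pif4 hybrid, a log2 change of 4.43 ± 0.28 (SE; adjusted p = 2.04e-07). HMT3, a homocysteine S-methyltransferase that regenerates methionine, had 0 counts at day 4 in the Col hybrid and measured 19.6 CPM there at day 7, and 1.52 and 31.97 CPM in the pif4 hybrid. Its log2 change was 4.49 ± 0.36 (SE; adjusted p = 1.68e-06), with both day 7 libraries far above both at day 4. AGL14, a MADS-box transcription factor, measured 0.716 CPM at day 4 and 23.9 CPM at day 7 in the Col hybrid, and 1.87 and 32.2 CPM in the pif4 hybrid, a log2 change of 4.19 ± 0.26 (SE; adjusted p = 2.04e-07). The uncharacterized gene AT1G67865 rose by 3.99 ± 0.26 (SE; adjusted p = 2.59e-07) and the late embryogenesis gene LEA18 by 3.86 ± 0.75 (SE; adjusted p = 0.00133). LEA18, AGL14, AT1G67865 and GSTF11 had 1 or 2 counts each in the day 4 Col library. The call of LEA18 was lost without the pif4 hybrid at day 4, and those of the other 4 held without any 1 library.

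Root hair genes fell. Of 10 tested, 9 fell and 0 rose, with a median log2 change of -2.18 and pair medians of -2.38 (Col) and -2.03 (pif4). The summed level went from 147 to 24.04 CPM in the Col hybrid and from 98.3 to 22.96 CPM in the pif4 hybrid. In whole seedlings, a change in the number of cells of a type and a change in RNA per cell cannot be told apart. This holds here, for the glucosinolate lists above and for every list below. The share of root or of leaf in the pooled tissue was not measured.

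A short motif is shown here because these genes fell together and most of them share it. The core of the root hair element, written TGNNNNCACG or TGNNNNNCACG and searched on both strands of the 250 bases before the annotated start, was found for 6 of the 10 root hair genes, all among the 9 that fell. It was found for 9.29% of the promoters of all genes tested (1891 of 20346), for 0 of 15 aliphatic glucosinolate genes and for 0 of 9 Casparian strip and suberin genes. The promoters of these 6 genes, EXPA7 (chr1:4276255-4276504, plus strand), COBL9 (chr5:19974531-19974780, minus strand), LRX1 (chr1:4069742-4069991, plus strand), EXPA18 (chr1:23331313-23331562, plus strand), XTH14 (chr4:13130041-13130290, plus strand) and PRP3 (chr3:23182472-23182721, plus strand), are shown from RefSeq on TAIR10.1, 5′ to 3′ on the gene's strand, with matches in capitals. In COBL9, 2 of its 3 matches overlap on opposite strands. Only 1 of the 10 root hair genes did not fall, so its lack of a match carries little. A match is a description of letters, not a shown binding site.
EXPA7: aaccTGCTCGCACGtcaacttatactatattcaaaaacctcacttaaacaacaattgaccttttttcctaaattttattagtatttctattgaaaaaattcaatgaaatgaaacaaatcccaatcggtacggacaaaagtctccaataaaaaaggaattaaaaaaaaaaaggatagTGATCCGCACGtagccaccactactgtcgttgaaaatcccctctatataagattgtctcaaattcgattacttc
COBL9: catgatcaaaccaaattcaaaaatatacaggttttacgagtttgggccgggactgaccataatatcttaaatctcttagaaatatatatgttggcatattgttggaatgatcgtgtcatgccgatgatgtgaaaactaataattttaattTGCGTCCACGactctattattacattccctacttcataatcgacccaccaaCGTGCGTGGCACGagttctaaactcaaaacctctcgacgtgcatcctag
LRX1: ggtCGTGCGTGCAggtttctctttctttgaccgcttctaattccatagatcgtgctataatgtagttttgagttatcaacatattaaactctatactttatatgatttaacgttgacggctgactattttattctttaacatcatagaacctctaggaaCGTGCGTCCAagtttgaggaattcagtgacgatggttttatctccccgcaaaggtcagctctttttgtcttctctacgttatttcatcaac
EXPA18: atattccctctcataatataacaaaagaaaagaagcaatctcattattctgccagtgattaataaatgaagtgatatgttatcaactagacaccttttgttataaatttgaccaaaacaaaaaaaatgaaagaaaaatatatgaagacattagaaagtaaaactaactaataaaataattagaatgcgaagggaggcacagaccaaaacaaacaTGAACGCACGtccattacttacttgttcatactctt
XTH14: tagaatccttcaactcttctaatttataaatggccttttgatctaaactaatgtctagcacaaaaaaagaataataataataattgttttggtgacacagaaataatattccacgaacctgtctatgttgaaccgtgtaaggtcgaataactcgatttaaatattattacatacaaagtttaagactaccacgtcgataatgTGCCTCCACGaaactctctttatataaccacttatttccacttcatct
PRP3: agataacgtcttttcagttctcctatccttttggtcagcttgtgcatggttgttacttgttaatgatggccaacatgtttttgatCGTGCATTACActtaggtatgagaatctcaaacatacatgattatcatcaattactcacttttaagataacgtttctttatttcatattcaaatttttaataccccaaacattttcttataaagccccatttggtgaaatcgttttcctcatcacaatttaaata

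The regulator RSL4, whose protein sets how long a root hair grows, went from 4.296 to 0.874 CPM in the Col hybrid and from 3.04 to 1.06 CPM in the pif4 hybrid, a log2 change of -1.8 ± 0.43 (SE; adjusted p = 0.00462). RHD6, which acts before RSL4 in hair formation, did not pass the test, at 0.27. The wall proteins fell furthest. LRX1, a leucine-rich repeat extensin of the hair wall, measured 20.05 CPM at day 4 and 1.22 CPM at day 7 in the Col hybrid, and 11.01 and 0.723 CPM in the pif4 hybrid. All day 7 values were below all day 4 values, a log2 change of -3.84 ± 0.38 (SE; adjusted p = 1.08e-05). PRP3, a proline-rich wall protein, measured 33.7 CPM at day 4 and 2.098 CPM at day 7 in the Col hybrid, and 21.5 and 2.17 CPM in the pif4 hybrid, a log2 change of -3.55 ± 0.26 (SE; adjusted p = 6.90e-07). LRX2, the close relative of LRX1, changed by -2.99 ± 0.38 (SE; adjusted p = 9.71e-05).

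Enzymes and anchors of the growing hair fell too. EXPA7, an expansin that loosens the hair wall, went from 12.2 to 2.01 CPM in the Col hybrid and from 7.85 to 1.56 CPM in the pif4 hybrid, a log2 change of -2.37 ± 0.36 (SE; adjusted p = 0.000342), and the hair expansin EXPA18 changed by -1.88 ± 0.31 (SE; adjusted p = 0.000468). COBL9, a membrane-anchored protein needed for hair tip growth, went from 7.88 to 1.14 CPM in the Col hybrid and from 6.09 to 0.945 CPM in the pif4 hybrid, a log2 change of -2.64 ± 0.38 (SE; adjusted p = 0.000207). XTH14, a xyloglucan endotransglucosylase of root hairs, went from 39.4 to 8.22 CPM in the Col hybrid and from 27.1 to 7.51 CPM in the pif4 hybrid, a log2 change of -1.99 ± 0.21 (SE; adjusted p = 2.32e-05). ADF8, an actin depolymerizing factor, changed least among those that fell, by -0.89 ± 0.29 (SE; adjusted p = 0.0272). For all 9 genes both day 7 libraries lay below both day 4 libraries. Without the pif4 hybrid at day 4, RSL4 and ADF8 lost the call and 7 genes fell, and the calls of LRX1, LRX2, PRP3, COBL9, EXPA7, EXPA18 and XTH14 held without any 1 library. EXPA7 and EXPA18 each overlap a gene on the opposite strand.

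**Figure D3:**
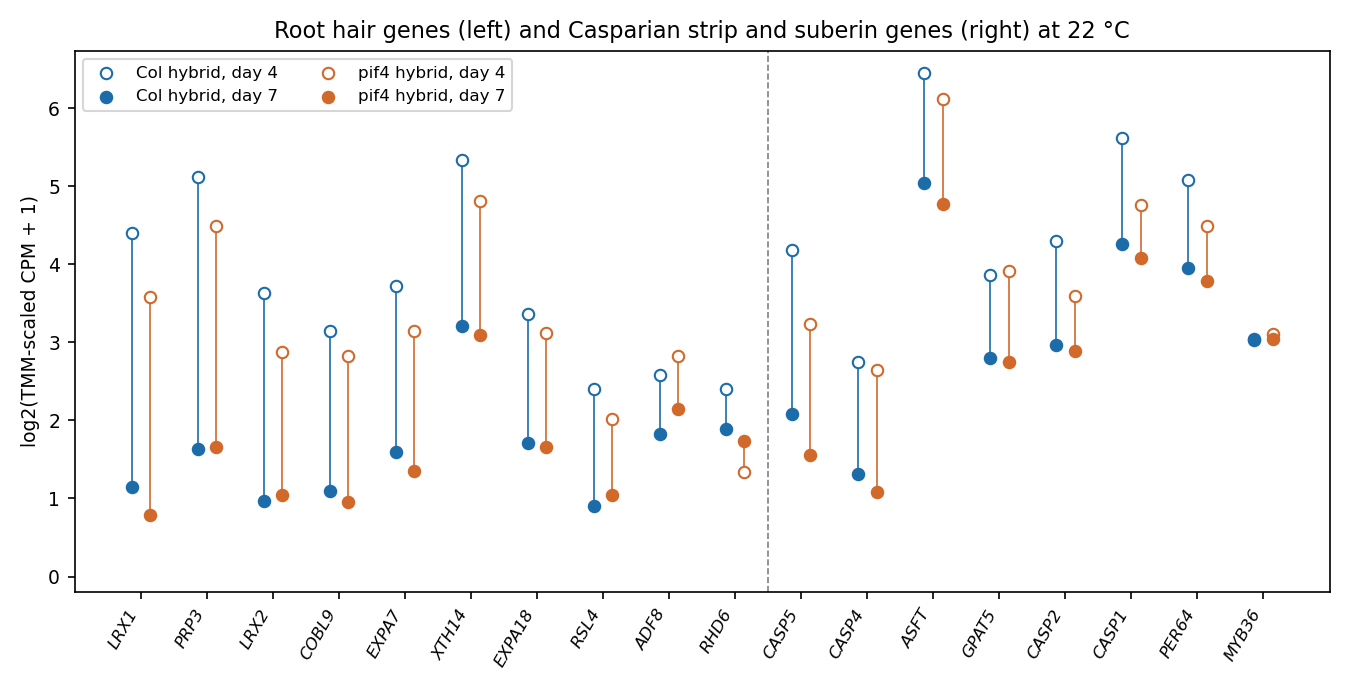
Level of root hair genes (left) and of Casparian strip and suberin genes (right) on the log2(TMM-scaled CPM + 1) scale, one point per library at 22 °C, with day 4 open and day 7 filled. Among the genes plotted, the day 7 points lie below the day 4 points in both hybrids except for RHD6 and MYB36, which did not pass the test, and the longest lines are those of PRP3 and LRX1 in the Col hybrid.

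Of the 8 genes that fell furthest, 5 are annotated as extensin-like and 1 as a hydroxyproline-rich glycoprotein. Extensins are hydroxyproline-rich glycoproteins that cross-link in the wall. EXT12 (chr4:7783791-7785366, plus strand) measured 22.2 CPM at day 4 and 0.437 CPM at day 7 in the Col hybrid, and 15.8 and 0.167 CPM in the pif4 hybrid. It kept under 1 CPM in either hybrid at day 7, and its log2 change was -5.96 ± 0.40 (SE; adjusted p = 2.59e-07). EXT13 measured 32.9 CPM at day 4 and 0.787 CPM at day 7 in the Col hybrid, and 18.7 and 0.445 CPM in the pif4 hybrid, a log2 change of -5.31 ± 0.34 (SE; adjusted p = 2.04e-07). EXT10 and EXT6 changed by -4.96 and -4.91, the extensin-like AT5G06630 by -5.22 and the hydroxyproline-rich HRGP1 by -4.44. The other 2 were an aspartyl protease, AT5G48430 (-4.14 ± 0.36, adjusted p = 3.87e-06), and a peroxidase, AT2G39040 (-4.0 ± 0.34, adjusted p = 3.18e-06). Extensin genes are near copies of each other, so reads may be shared among them. Among 19 tested genes with extensin-like in their product text, a set chosen after these values were seen, 14 fell and 0 rose, with a median log2 change of -3.20. The root hair element core was found for 12 of these 19 genes, against 9.29% of the promoters of all genes tested. Because of how the set was chosen, this is not separate evidence beside the root hair list. The calls of the 8 leading genes held without any 1 library.

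Genes of the root endodermis fell as well, by less. The Casparian strip is a lignin band that seals the endodermis, and suberin is the waxy layer laid down after it. Of 9 tested genes, 8 fell and 0 rose (median -1.05). The pairs' own medians were -1.40 (Col) and -0.79 (pif4). The scaffold gene CASP5 measured 17.2 CPM at day 4 and 3.23 CPM at day 7 in the Col hybrid, and 8.43 and 1.95 CPM in the pif4 hybrid, a log2 change of -2.21 ± 0.25 (SE; adjusted p = 4.26e-05). Day 7 was below day 4 in both hybrids. CASP4 changed by -2.19, CASP2 by -1.05 and CASP1 by -1.0. PER64, the peroxidase of strip lignin, went from 32.9 to 14.5 CPM in the Col hybrid and from 21.5 to 12.8 CPM in the pif4 hybrid, a log2 change of -0.92 ± 0.17 (SE; adjusted p = 0.00117). ASFT, a feruloyl transferase of suberin, went from 86.6 to 31.8 CPM in the Col hybrid and from 68.4 to 26.4 CPM in the pif4 hybrid, a log2 change of -1.41 ± 0.18 (SE; adjusted p = 0.000109), and the suberin acyltransferase GPAT5 changed by -1.29. MYB36, the activator of strip genes, did not pass the test, at -0.09, and ESB1 was not tested. Without the pif4 hybrid at day 4, 5 genes of the list fell.

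Uptake genes of the root fell in part. Of 13 tested root iron uptake genes, 6 fell and 1 rose (median -0.72). FRO2, the ferric reductase, went from 53.7 to 22.7 CPM in the Col hybrid and from 85.5 to 41.5 CPM in the pif4 hybrid, a log2 change of -1.13 ± 0.17 (SE; adjusted p = 0.00034), and the iron transporter IRT1 went from 88.8 to 49.9 CPM in the Col hybrid and from 170.1 to 84.8 CPM in the pif4 hybrid, a log2 change of -0.91 ± 0.22 (SE; adjusted p = 0.00577). The ages did not overlap for either gene, although both were higher in the pif4 hybrid at each age. OPT3, which carries iron in the phloem, changed by -1.6 ± 0.20 (SE; adjusted p = 9.49e-05), and BTS, a ubiquitin ligase that restrains the iron response, by -1.44 ± 0.20 (SE; adjusted p = 0.00016). F6'H1, which makes coumarins that mobilise iron, rose by 0.5 ± 0.19 (SE; adjusted p = 0.046). The ferritins FER4 and FER1, iron storage proteins, rose by 1.27 and 0.57, 2 of 4 tested with 0 falling. The other 2 ferritins did not pass and lay below 0 in both pairs, the lower at -1.14. The calls of FRO2, OPT3, BTS and FER4 held without any 1 library, and 3 genes of the uptake list fell without the pif4 hybrid at either age.

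Among nitrate and phosphate genes, 7 of 10 tested fell and 1 rose (median -0.83). Nitrate reductase NIA1 measured 631 CPM at day 4 and 237 CPM at day 7 in the Col hybrid, and 555 and 221 CPM in the pif4 hybrid, a log2 change of -1.37 ± 0.18 (SE; adjusted p = 0.000102). Its paralog NIA2 went from 3373 to 1486 CPM in the Col hybrid and from 2669.8 to 1339 CPM in the pif4 hybrid, a log2 change of -1.09 ± 0.28 (SE; adjusted p = 0.00762). Both fell in both hybrids without overlap of ages. The phosphate transporters PHT1;4 and PHT1;1 changed by -1.57 and -1.06, PHO1, which loads phosphate into the xylem, by -0.84, and the nitrate transporter NRT1.1 by -0.61. SPX1, a phosphate sensor induced by phosphate shortage, rose by 1.08 ± 0.30 (SE; adjusted p = 0.012) on 2 counts in the day 4 Col library. The calls of NIA1, PHT1;4 and PHT1;1 held without any 1 library, and 3 genes of the list fell without the pif4 hybrid at either age.

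In the xylem list, 5 of 12 tested genes fell and 0 rose (median -0.33). The members that fell were enzymes of the secondary wall, not the regulators. CESA4, CESA7 and CESA8, the cellulose synthases of the secondary wall, changed by -1.16, -1.24 and -1.21. The lignin laccase LAC17 went from 20.8 to 5.42 CPM in the Col hybrid and from 14.6 to 3.34 CPM in the pif4 hybrid, a log2 change of -1.95 ± 0.27 (SE; adjusted p = 0.000167), and LAC4 changed by -1.26 ± 0.21 (SE; adjusted p = 0.000522). These calls held without any 1 library, except that of CESA8, which was lost without the pif4 hybrid at day 4. The switches VND6, VND7, MYB46 and MYB83 did not pass the test, at 0.33, 0.57, -0.3 and -0.35, on at most 2 counts each in the day 4 Col library.

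Genes that mark a sugar shortage were lower at day 7. Of 11 tested, 8 fell and 1 rose (median -1.09). The pairs' own medians were -1.17 (Col) and -0.56 (pif4). DIN6, an asparagine synthetase raised when carbon is short, measured 1138 CPM at day 4 and 276 CPM at day 7 in the Col hybrid, and 532 and 268 CPM in the pif4 hybrid, a log2 change of -1.54 ± 0.27 (SE; adjusted p = 0.000714). DIN10 went from 600.0 to 130.0 CPM in the Col hybrid and from 279.9 to 139.6 CPM in the pif4 hybrid, a log2 change of -1.6 ± 0.25 (SE; adjusted p = 0.000347), and DIN1 from 630.1 to 152 CPM in the Col hybrid and from 227 to 154 CPM in the pif4 hybrid, a log2 change of -1.33 ± 0.29 (SE; adjusted p = 0.00263). In each of these genes the day 4 Col library stood highest, and the day 7 libraries were close to each other. The trehalose phosphate synthase-like genes TPS11, TPS9, TPS8 and TPS10 changed by -1.31, -1.09, -0.79 and -0.61. Against the list, the glucosidase gene DIN2 rose, from 0.716 to 17.3 CPM in the Col hybrid and from 1.41 to 15.4 CPM in the pif4 hybrid, a log2 change of 3.6 ± 0.49 (SE; adjusted p = 0.000142). The calls of DIN2, DIN6, DIN10, TPS9 and TPS11 held without any 1 library, while 5 genes of the list fell without the Col hybrid at day 4 and 4 without it at day 7.

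Photosynthesis genes were lower at day 7 in their medians, and how many passed the test depended on which libraries were fitted. Of 31 genes of light harvesting and the photosystems, 7 fell and 0 rose, 22.6% falling against the background of 19%, with a median of -0.70. Of 15 genes of the Calvin cycle and Rubisco, 7 fell and 0 rose (median -0.81). The summed light harvesting level went from 138747 to 74382 CPM in the Col hybrid and from 81315 to 59997 CPM in the pif4 hybrid, and the Calvin cycle level from 55082 to 27418 CPM in the Col hybrid and from 33825 to 23186 CPM in the pif4 hybrid. These lists hold the most abundant messages in the seedling, and the day 4 Col library was highest for both.

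The small subunit genes of Rubisco, the enzyme that fixes carbon dioxide, show the pattern. RBCS3B measured 5374 CPM at day 4 and 1599.5 CPM at day 7 in the Col hybrid, and 2465 and 1221 CPM in the pif4 hybrid, a log2 change of -1.43 ± 0.38 (SE; adjusted p = 0.00933). RBCS1A went from 10823 to 3755 CPM in the Col hybrid and from 4880.3 to 2863 CPM in the pif4 hybrid, a log2 change of -1.2 ± 0.43 (SE; adjusted p = 0.0401). Day 7 was below day 4 in both hybrids, and the day 4 libraries differed from each other by more than the day 7 libraries did. TKL1, a transketolase of the cycle, went from 1549 to 732 CPM in the Col hybrid and from 1234 to 669 CPM in the pif4 hybrid, a log2 change of -0.99 ± 0.22 (SE; adjusted p = 0.00338). Near-identical RBCS copies may share reads. The antenna genes LHCB2.1 and LHCB2.2 changed by -0.96 and -0.95, the minor antenna gene LHCB4.3 by -1.04 and PSAF, a photosystem I subunit, by -0.97. In photorespiration, 3 of 8 tested genes fell and 0 rose, led by GLDP1, the glycine decarboxylase P protein, which went from 1580.2 to 442 CPM in the Col hybrid and from 1136 to 403 CPM in the pif4 hybrid, a log2 change of -1.68 ± 0.23 (SE; adjusted p = 0.000167). GLDP1 was the only photosynthesis or photorespiration gene named here whose call held without any 1 library.

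These photosynthesis values moved with depth and with single libraries. Without the day 4 Col library, 0 light harvesting and 0 Calvin cycle genes fell, with medians of -0.33 and -0.52, in a test that still called 2340 genes as falling. Without the day 7 Col library, 0 of either list fell as well. Without either day 7 library at 27 °C, 27 light harvesting and 10 Calvin cycle genes fell, and with the 4 libraries at 22 °C alone 27 and 11 fell. With log2 library total as a covariate the medians were 0.10 and -0.08, and 2 light harvesting genes rose. In the pif4 pair at 27 °C, the only pair whose day 7 library was the shallower, the medians were 0.50 and 0.24. The aliphatic glucosinolate median there was 3.08 and the root hair median -0.98. The part of depth in the photosynthesis result was not tested further.

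**Figure D4:**
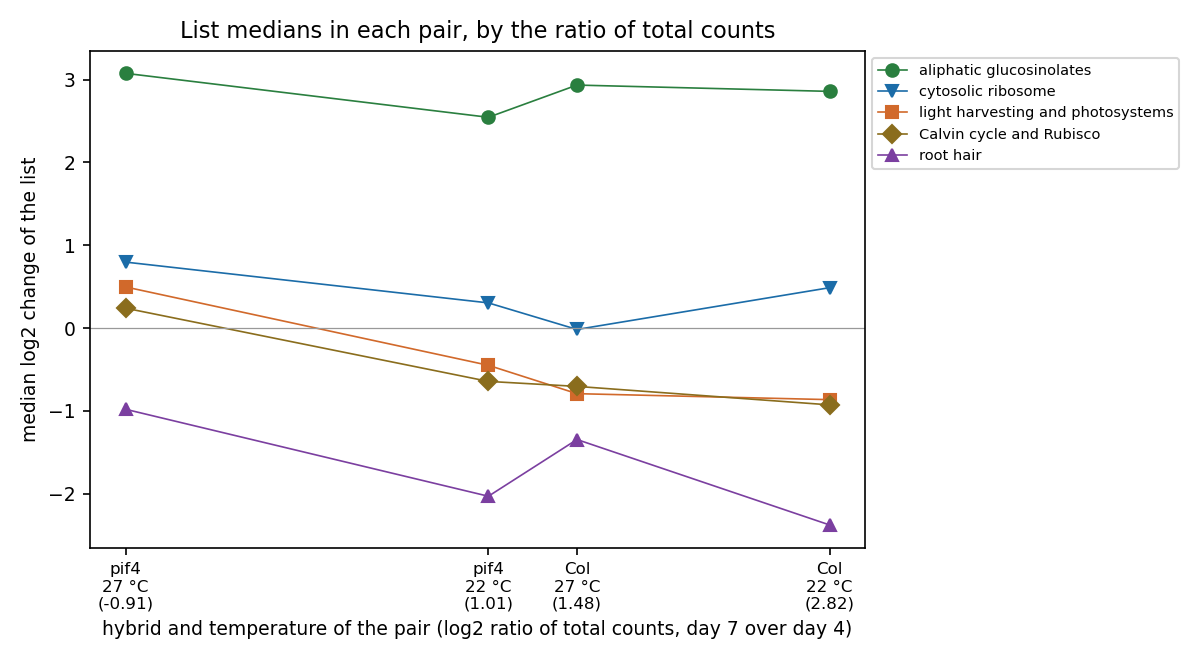
Median log2 change from day 4 to day 7 of 5 gene lists in each of the 4 pairs of libraries, placed on the horizontal axis by the log2 ratio of day 7 to day 4 total counts. Aliphatic glucosinolates stay between 2.55 and 3.08, while light harvesting goes from 0.50 in the pair with ratio -0.91 to -0.86 in the pair with ratio 2.82.

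Chlorophyll synthesis was split. Of 18 tested genes, 5 fell and 2 rose (median -0.13). GUN5, a subunit of magnesium chelatase, went from 4656 to 2247 CPM in the Col hybrid and from 3757 to 1901 CPM in the pif4 hybrid, a log2 change of -1.02 ± 0.31 (SE; adjusted p = 0.0178), and its partners GUN4 and CHLD changed by -0.69 and -0.53. PORB, which reduces protochlorophyllide in light, rose by 0.64 ± 0.17 (SE; adjusted p = 0.00985), and PCB2 by 0.9 ± 0.19 (SE; adjusted p = 0.00234). Without the Col hybrid at day 4, 0 of these genes passed in either direction.

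Ribosomal protein genes of the cytosol rose in part. Of 25 tested, 9 rose and 0 fell, 36% against the background of 20% rising (median 0.40). The pairs' own medians were 0.49 (Col) and 0.30 (pif4). RPS18A measured 109.5 CPM at day 4 and 252 CPM at day 7 in the Col hybrid, and 129 and 259 CPM in the pif4 hybrid, a log2 change of 1.09 ± 0.19 (SE; adjusted p = 0.00069). PGY1, a large subunit protein with effects on leaf shape, went from 275 to 548 CPM in the Col hybrid and from 294 to 549.7 CPM in the pif4 hybrid, a log2 change of 0.95 ± 0.21 (SE; adjusted p = 0.00304), and RPL5B from 347 to 639 CPM in the Col hybrid and from 359.8 to 619 CPM in the pif4 hybrid, a log2 change of 0.83 ± 0.21 (SE; adjusted p = 0.00694). RPS6B, the ribosomal protein phosphorylated under TOR signalling, went from 248 to 482 CPM in the Col hybrid and from 288 to 452 CPM in the pif4 hybrid, a log2 change of 0.79 ± 0.20 (SE; adjusted p = 0.00598). None of these 4 genes had overlapping ages. The count was 2 without the Col hybrid at day 4 and 3 without it at day 7, and 1 and 3 without the pif4 hybrid at day 4 and day 7. RPS18A was the single member whose call held without any 1 library. Many ribosomal genes have near-identical copies between which reads may be split.

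Promoters of this family often carry the site II element, TGGGCC, searched on both strands of the same 250 bases. It was found for 13 of the 25 ribosomal genes, against 16.3% of all promoters of tested genes. It was found for 2 of the 9 ribosomal genes that rose (RPS6B and RPL5B) and for 11 of the 16 that did not pass. The telo box, AAACCCTA, was found for 2 of the 25 ribosomal genes against 3.6% of all promoters. The G box, CACGTG, the element that PIF4 and its relatives bind, was found for 2 of 15 aliphatic glucosinolate genes (CYP83A1 and SUR1) against 7.39% of all promoters.

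Cell division genes moved little. Of 17 mitosis genes, 4 rose and 0 fell (median 0.24). KN, the syntaxin that builds the cell plate, went from 17.2 to 39.7 CPM in the Col hybrid and from 19.4 to 39.1 CPM in the pif4 hybrid, a log2 change of 1.05 ± 0.16 (SE; adjusted p = 0.000369). The cyclins CYCA1;1, CYCB2;2 and CYCB2;4 rose by 0.96, 1.06 and 0.98. CYCB1;1, a common marker of dividing cells, did not pass, at 0.48. The mitosis count was 1 without the pif4 hybrid at day 4 and 2 without it at day 7, and the call of KN held without any 1 library. Of 10 DNA replication genes, 2 fell and 0 rose: RNR1, the large subunit of ribonucleotide reductase (-0.78 ± 0.16, adjusted p = 0.00175), and MCM2, a helicase subunit (-0.46 ± 0.17, adjusted p = 0.0415). Without the pif4 hybrid at either age, 0 of the replication genes fell.

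Genes of leaf formation went both ways. Of 20 polarity and outgrowth genes, 6 fell and 1 rose (median -0.35). CYP78A5, a cytochrome P450 that prolongs organ growth, went from 16.5 to 8.31 CPM in the Col hybrid and from 16.9 to 6.73 CPM in the pif4 hybrid, a log2 change of -1.21 ± 0.19 (SE; adjusted p = 0.000339). KAN1, a determinant of the lower leaf face, went from 27.2 to 10.1 CPM in the Col hybrid and from 17.2 to 10.3 CPM in the pif4 hybrid, a log2 change of -0.96 ± 0.23 (SE; adjusted p = 0.00482), and PHB and REV, determinants of the upper face, changed by -0.75 and -0.59. Factors of both leaf faces were thus among those that fell. The 1 gene of the list that rose was YAB2, while YAB1 fell. The log2 change of YAB2 ran from 0.37 to 1.18 over 19 other fits, and its call was lost in 5 of them. The D-type cyclins CYCD3;2 and CYCD3;3, which keep leaf cells dividing, rose: CYCD3;2 went from 92.4 to 188 CPM in the Col hybrid and from 109.5 to 203 CPM in the pif4 hybrid, a log2 change of 0.95 ± 0.15 (SE; adjusted p = 0.000446), and CYCD3;3 changed by 1.01 ± 0.17 (SE; adjusted p = 0.00061). Of 10 leaf growth regulators these 2 rose and 1 fell, the growth-regulating factor GRF1 (-0.8 ± 0.21, adjusted p = 0.00775). The call of CYCD3;2 held without any 1 library, and the polarity list had 3 falling genes without the Col hybrid at day 4, and 1 and 2 without the pif4 hybrid at day 4 and day 7.

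In the shoot meristem list, 2 of 5 tested genes fell and 0 rose. KNAT1, a homeobox gene of the meristem and stem, went from 45.8 to 19.5 CPM in the Col hybrid and from 37.4 to 18.7 CPM in the pif4 hybrid, a log2 change of -1.09 ± 0.16 (SE; adjusted p = 0.000264), and the receptor CLV1 changed by -0.65 ± 0.16 (SE; adjusted p = 0.00645). STM, the meristem homeobox gene, measured 1.43 CPM at day 4 and 2.89 CPM at day 7 in the Col hybrid, and 1.99 and 4.34 CPM in the pif4 hybrid and did not pass, at 0.92 ± 0.44 (SE; adjusted p = 0.11). WUS and CLV3, which define the stem cell centre, were at or below the 3-count limit in each library and were not tested. The call of KNAT1 held without any 1 library.

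Some stomatal genes rose. Of 11 tested, 4 rose and 2 fell (median 0.48). EPFL9, the peptide that promotes stomata, went from 31.5 to 71.3 CPM in the Col hybrid and from 28.6 to 80.95 CPM in the pif4 hybrid, a log2 change of 1.39 ± 0.18 (SE; adjusted p = 9.49e-05). EPF2, a peptide that limits entry to the lineage, went from 1.43 to 5.95 CPM in the Col hybrid and from 2.11 to 6.06 CPM in the pif4 hybrid, a log2 change of 1.62 ± 0.36 (SE; adjusted p = 0.00309). POLAR and BASL, which mark the pole of dividing lineage cells, rose by 1.14 and 1.39. Their ages did not overlap. The receptor TMM and the bHLH factor ICE1 fell by 0.47 and 0.37 on the log2 scale. SPCH, MUTE and FAMA, the factors of the successive stages, did not pass, at -0.23, -0.37 and 0.19. In the epidermal list, 2 of 11 rose, the small MYB genes CPC (1.03 ± 0.33, adjusted p = 0.0252), which represses trichomes on the shoot and promotes hair fate in the root, and TCL1 (2.97 ± 0.66, adjusted p = 0.00325), a trichome repressor, and 1 fell, GL2, a regulator of trichomes and of hairless root cells (-1.0 ± 0.27, adjusted p = 0.00904). TCL1 had 0 counts and CPC 2 counts in the day 4 Col library. The call of EPFL9 held without any 1 library, and it was the 1 stomatal gene that rose without the pif4 hybrid at day 4.

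Markers of the change from juvenile to adult leaves moved in part. Of 15 tested, 3 fell and 2 rose, 20% and 13.3% against the background of 19% falling and 20% rising. TOE2, an AP2-type repressor of that change targeted by miR172, went from 72.3 to 27.5 CPM in the Col hybrid and from 66.4 to 26.4 CPM in the pif4 hybrid, a log2 change of -1.34 ± 0.15 (SE; adjusted p = 2.82e-05). SPL13A, a target of miR156 that promotes adult traits, went from 12.9 to 23.9 CPM in the Col hybrid and from 9.95 to 25.3 CPM in the pif4 hybrid, a log2 change of 1.22 ± 0.19 (SE; adjusted p = 0.000339), and SPL9 changed by 1.12 ± 0.38 (SE; adjusted p = 0.0303) on 1 count in the day 4 Col library. Of 5 tested flowering genes 2 rose, both repressors: SVP went from 29.4 to 64.1 CPM in the Col hybrid and from 37.1 to 65.8 CPM in the pif4 hybrid, a log2 change of 0.9 ± 0.16 (SE; adjusted p = 0.000893), and FLC from 124 to 153 CPM in the Col hybrid and from 114 to 169.8 CPM in the pif4 hybrid, a log2 change of 0.44 ± 0.16 (SE; adjusted p = 0.0438). FT, the mobile flowering signal, had 0 counts in all 4 libraries. The calls of TOE2 and SVP held without any 1 library, and those of SPL9 and FLC were lost without any of the 4 libraries at 22 °C.

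Light and clock genes went both ways. Of 14 PIF and shade genes, 3 fell and 2 rose. That is 21.4% and 14.3%, against the background of 19% falling and 20% rising. PIF3, a relative of PIF4 that holds back greening in the dark, went from 22.9 to 9.53 CPM in the Col hybrid and from 23.4 to 10.1 CPM in the pif4 hybrid, a log2 change of -1.26 ± 0.17 (SE; adjusted p = 0.000127), and PIF5 and PIF1 changed by -0.6 and -0.56. HFR1, a bHLH protein that binds PIFs and blocks them, rose, from 40.8 to 127 CPM in the Col hybrid and from 39.7 to 86.7 CPM in the pif4 hybrid, a log2 change of 1.33 ± 0.18 (SE; adjusted p = 0.000152). Of 11 photoreceptor and light signalling genes, 5 fell and 1 rose. PHYA, the far-red receptor, went from 557 to 242 CPM in the Col hybrid and from 319 to 189 CPM in the pif4 hybrid, a log2 change of -0.98 ± 0.20 (SE; adjusted p = 0.00184), and PHYB, CRY1 and CRY2 changed by -0.61, -0.53 and -0.51. HY5, the bZIP factor of light-grown development, was the riser, from 12.2 to 32.9 CPM in the Col hybrid and from 18.6 to 38.7 CPM in the pif4 hybrid, a log2 change of 1.13 ± 0.17 (SE; adjusted p = 0.000285). Without the Col hybrid at day 4, 0 genes of the photoreceptor list fell and HY5 alone rose, and the calls of PIF3, HFR1 and HY5 held without any 1 library.

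Of 20 clock genes, 6 fell and 2 rose, all sampled at the same hour. That is 30% falling and 10% rising, against the background of 19% and 20%. The evening gene GI, low at dawn, went from 10.02 to 2.97 CPM in the Col hybrid and from 7.495 to 2.72 CPM in the pif4 hybrid, a log2 change of -1.55 ± 0.24 (SE; adjusted p = 0.000369). The morning genes LHY and CCA1 changed by -0.63 ± 0.20 (SE; adjusted p = 0.0216) and -0.55 ± 0.18 (SE; adjusted p = 0.0284). LHY stood at 979 and 939 CPM at day 4 and at 629.9 and 606 CPM at day 7, so the hybrids were closer to each other than the ages were. ELF3 and TOC1, which act at night, changed by -0.77 and -0.72. Without the pif4 hybrid at either age 1 clock gene fell, and the call of GI held without any 1 library.

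Hormone lists were mixed. Of 9 type-A cytokinin response regulators, 4 rose and 0 fell, ARR5 by 0.91, ARR7 by 0.8, ARR6 by 0.6 and ARR9 by 0.45. Of 15 early auxin genes, 3 rose and 2 fell, 20% and 13.3% against the background of 20% rising and 19% falling. IAA14 went from 35.1 to 61.6 CPM in the Col hybrid and from 25.4 to 60.8 CPM in the pif4 hybrid, a log2 change of 1.09 ± 0.17 (SE; adjusted p = 0.000353), and GH3.3, an enzyme that conjugates auxin, fell by 0.79 on the log2 scale. Of 17 gibberellin genes, 4 fell and 2 rose (median 0.13). That is 23.5% and 11.8%, against the background of 19% falling and 20% rising. Some enzymes that make active gibberellin were among those that fell, GA3OX1 going from 15.8 to 6.38 CPM in the Col hybrid and from 10.4 to 3.78 CPM in the pif4 hybrid, a log2 change of -1.34 ± 0.25 (SE; adjusted p = 0.00103), and GA20OX2 changing by -0.97 ± 0.28 (SE; adjusted p = 0.0146). The receptor gene GID1B fell as well. Its fall ran from 0.51 to 1.08 on the log2 scale over 19 other fits, and its call was lost in 6 of them. The 2 that rose, RGL1 and RGL2, are DELLA proteins, which restrain gibberellin growth, at 0.64 and 0.63. Without the pif4 hybrid at either age 0 response regulators rose, while the calls of GH3.3 and GA3OX1 held without any 1 library.

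The other defence lists were mixed. Of 13 jasmonate genes, 4 rose and 2 fell, 30.8% and 15.4% against the background of 20% rising and 19% falling. LOX2, the lipoxygenase that starts jasmonate synthesis in leaves, went from 4.296 to 15.7 CPM in the Col hybrid and from 6.32 to 16.3 CPM in the pif4 hybrid, a log2 change of 1.55 ± 0.24 (SE; adjusted p = 0.000372), and JAZ1, a repressor induced by jasmonate, went from 11.5 to 4.81 CPM in the Col hybrid and from 16.05 to 3.89 CPM in the pif4 hybrid, a log2 change of -1.8 ± 0.24 (SE; adjusted p = 0.00012). The synthesis gene and the repressor thus moved in opposite directions. Of 9 salicylic acid genes 2 rose, PAD4 (0.95 ± 0.24, adjusted p = 0.00631) and PBS3 (2.82 ± 0.92, adjusted p = 0.0256), the latter on 1 count in the day 4 Col library. Of 11 flavonoid genes 2 rose, TT4, chalcone synthase (0.75 ± 0.20, adjusted p = 0.00984), and TT5, chalcone isomerase (0.85 ± 0.19, adjusted p = 0.00336). The share rising was 22.2% of the salicylic acid list and 18.2% of the flavonoid list, close to that background. The calls of LOX2, JAZ1, TT4 and TT5 were lost without the pif4 hybrid at day 4, and that of PAD4 without it at day 7.

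Wall-loosening enzymes outside the root hair went both ways. Of 15 xyloglucan enzyme genes, 3 rose and 3 fell. That is 20% each way, close to the background of 20% rising and 19% falling. XTH9 went from 67.3 to 176 CPM in the Col hybrid and from 59.7 to 175 CPM in the pif4 hybrid, a log2 change of 1.49 ± 0.17 (SE; adjusted p = 3.53e-05), and XTH22, a touch-induced gene, went from 13.6 to 47.6 CPM in the Col hybrid and from 12.6 to 38.97 CPM in the pif4 hybrid, a log2 change of 1.71 ± 0.17 (SE; adjusted p = 1.16e-05). XTH23 moved the other way, from 8.59 to 3.58 CPM in the Col hybrid and from 16.6 to 3.95 CPM in the pif4 hybrid, a log2 change of -1.95 ± 0.26 (SE; adjusted p = 0.00012), with no overlap of ages. Of 9 expansins, EXPA4 and EXPA10 rose by 0.66 and 0.64, and EXPA8 and EXPA16 fell by 0.81 and 0.75 on the log2 scale. That is 22.2% each way, again close to the background. The calls of XTH9, XTH22 and EXPA8 held without any 1 library, and that of XTH23 was lost without the pif4 hybrid at day 4.

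Messages of seed storage proteins were near the limit of counting at both ages at 22 °C. The 16 seed storage and late embryogenesis genes summed to 4.296 and 4.72 CPM at day 4 and day 7 in the Col hybrid, and to 3.28 and 9.01 CPM in the pif4 hybrid. Of 7 tested, 0 rose and 0 fell by edgeR or by DESeq2, and 1 had an unadjusted p under 0.05 in edgeR. With the 4 libraries at 22 °C alone, with the depth covariate, or without either library at 27 °C and day 4, 2 rose. The median of the list was 0.56 and ran from -3.54 to 6.46 when 1 library was left out, so its direction at 22 °C was not determined. Of 17 seed oil and glyoxylate cycle genes, 6 fell and 0 rose (median -0.29): PXA1, the importer of fatty acids into peroxisomes, changed by -0.92 ± 0.18 (SE; adjusted p = 0.00142) and the acyl-CoA oxidase ACX3 by -0.81 ± 0.14 (SE; adjusted p = 0.000701). ICL and MLS, the enzymes particular to the glyoxylate cycle, did not pass, at -0.29 and -0.42. ABI3, a seed maturation factor, went from 5.01 to 1.49 CPM in the Col hybrid and from 2.34 to 0.667 CPM in the pif4 hybrid, a log2 change of -1.56 ± 0.49 (SE; adjusted p = 0.0221). The calls of PXA1 and ACX3 held without any 1 library, and that of ABI3 did not.

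The same age step at 27 °C served as the comparison for temperature. There, 28.4% of genes were called, 15.4% rising and 12.9% falling, and 4526 genes were called at both temperatures in the same direction against 10 in opposite directions. The difference between the temperatures, tested in the same fit, passed for 60 genes (0.293%), 43 (0.21%) with the more positive change at 22 °C and 17 (0.0829%) with the more negative. It passed for 0 genes without the Col hybrid at day 4 (1251 at an unadjusted p under 0.05), and for 806 and 1038 genes without the pif4 hybrid at day 4 and 27 °C. All 15 aliphatic glucosinolate genes rose at 27 °C as well, with a median of 3.07, and 8 of 10 root hair genes fell (median -1.26). Other lists repeated less at 27 °C, where 3 Casparian strip and suberin genes (median -0.07), 0 xylem genes (-0.01) and 2 sugar starvation genes (-0.20) fell. There, 0 mitosis genes rose, while 6 ribosomal genes rose and 4 root iron uptake genes fell. Among these 6 other lists the temperature difference itself passed for 1 gene, of the sugar starvation list.

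Single members differed between temperatures. MAM3 measured 3.802 CPM at day 4 and 49.2 CPM at day 7 in the Col hybrid, and 6.596 and 56.7 CPM in the pif4 hybrid at 27 °C. Its day 4 values were lower than at 22 °C, its change there was 3.31, and the difference was -1.72 ± 0.29 (SE; adjusted p = 0.0227). Of the 19 extensin-like genes, 2 passed with a larger fall at 22 °C, EXT10 and EXT6. EXT10 measured 7.604 CPM at day 4 and 1.65 CPM at day 7 in the Col hybrid, and 11.5 and 2.12 CPM in the pif4 hybrid at 27 °C, and the difference was -2.56 ± 0.47 (SE; adjusted p = 0.033). EXT6 gave a difference of -2.28 ± 0.43 (SE; adjusted p = 0.0374), and the hydroxyproline-rich HRGP1 one of -2.19 ± 0.39 (SE; adjusted p = 0.0326). No root hair list member passed this test, with adjusted p = 0.0886 for PRP3 and 0.196 for LRX1.

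The late embryogenesis gene LEA18 changed in opposite directions at the temperatures. LEA18 measured 0.716 CPM at day 4 and 12.6 CPM at day 7 in the Col hybrid, and 0.468 and 6.95 CPM in the pif4 hybrid at 22 °C. At 27 °C it measured 26.2 CPM at day 4 and 1.62 CPM at day 7 in the Col hybrid, and 6.68 and 2.48 CPM in the pif4 hybrid, so that it rose at 22 °C and fell at 27 °C, by 3.02 on the log2 scale. The difference was 6.88 ± 0.79 (SE; adjusted p = 0.00275). AT3G17520 and LEA7, of the same broad family, gave differences of 7.69 ± 0.94 (SE; adjusted p = 0.00368) and 6.54 ± 0.90 (SE; adjusted p = 0.00493), and PER1, a seed peroxiredoxin, 6.37 ± 1.16 (SE; adjusted p = 0.033). These 3 fell at 27 °C and did not pass at 22 °C, at 1.86, 1.53 and 2.28. Summed seed storage and late embryogenesis levels at 27 °C went from 185 to 3.02 CPM in the Col hybrid. In the pif4 hybrid they went from 50.6 to 2.65 CPM. All 7 tested genes fell there, but the filter on low counts favoured that outcome. A gene had to pass it in only 2 of 8 libraries, and the list was highest in the 2 at 27 °C and day 4. When 4 of 8 libraries had to pass, 3 genes of the list were left to test. The count of 7 is therefore not separate evidence beside the summed levels.

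DIN2 stood out from the sugar list. At 27 °C it measured 19.7 CPM at day 4 and 11.3 CPM at day 7 in the Col hybrid, and 10.6 and 17.9 CPM in the pif4 hybrid, with no common direction, and the difference was 3.63 ± 0.57 (SE; adjusted p = 0.0137). RAB18, a dehydrin raised by abscisic acid, went from 11.5 to 15.4 CPM in the Col hybrid and from 9.604 to 18.1 CPM in the pif4 hybrid at 22 °C and from 89.8 to 24.7 CPM in the Col hybrid and from 52.2 to 22.9 CPM in the pif4 hybrid at 27 °C, a difference of 2.24 ± 0.31 (SE; adjusted p = 0.00493). XTH22 gave a difference of 1.19 ± 0.22 (SE; adjusted p = 0.033). AT5G03545, annotated as expressed in response to phosphate starvation, went from 10.02 to 3.93 CPM in the Col hybrid and from 7.85 to 4.28 CPM in the pif4 hybrid at 22 °C and from 5.32 to 15.2 CPM in the Col hybrid and from 4.67 to 11.9 CPM in the pif4 hybrid at 27 °C. Its difference was -2.49 ± 0.31 (SE; adjusted p = 0.00368), with day 7 lower at 22 °C and higher at 27 °C in both hybrids.

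**Figure D5:**
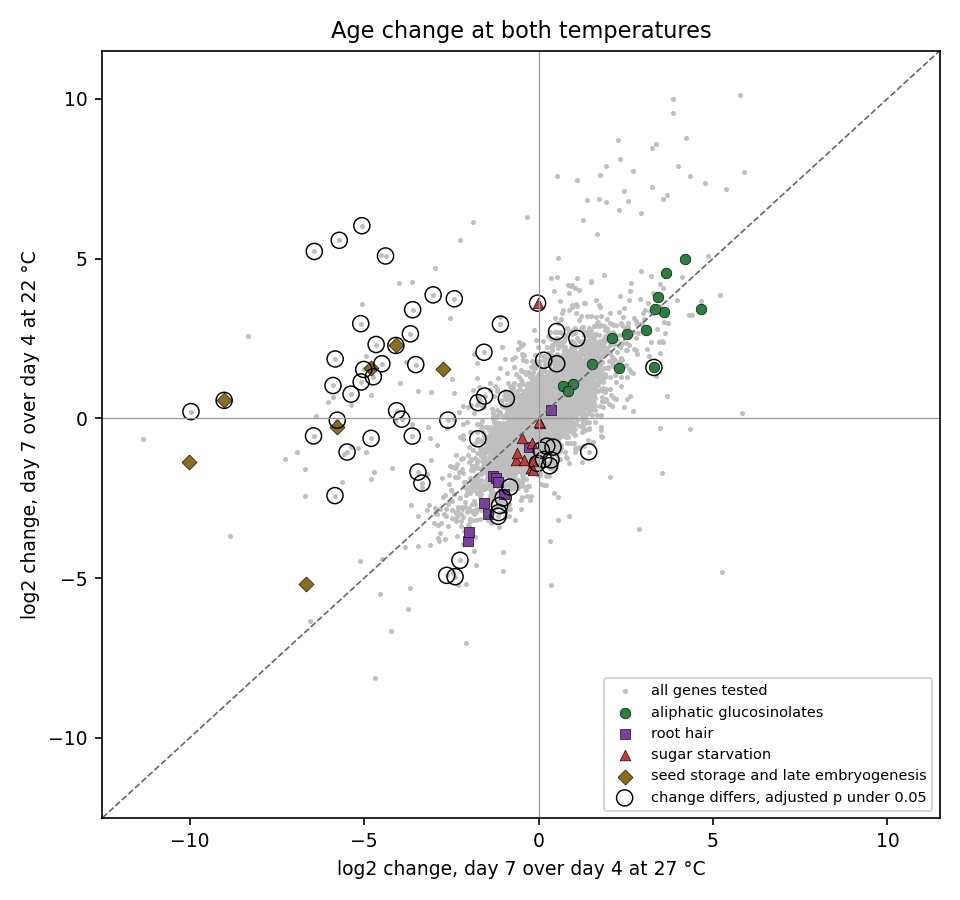
Fitted log2 change from day 4 to day 7 at 22 °C (vertical) against that at 27 °C (horizontal) for all 20502 genes tested, with 4 gene lists coloured and the genes whose change differed at an adjusted p under 0.05 ringed. Most ringed genes lie at the left, negative at 27 °C and near or above 0 at 22 °C, and the aliphatic glucosinolate genes lie near the dashed line of equal change.

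A difference between the hybrids in the change with age passed the test for few genes. A hybrid-by-age term, pooled over both temperatures, passed for 34 genes (0.166%), and 2362 genes had an unadjusted p under 0.05. Of the 34, 31 changed more positively in the pif4 hybrid, and 15 hold a space in their symbol. LRR XI-23, a receptor-like kinase gene and one of those 15, measured 123 CPM at day 4 and 2.19 CPM at day 7 in the Col hybrid, and 147 and 67.2 CPM in the pif4 hybrid at 22 °C. At 27 °C it measured 147 CPM at day 4 and 1.79 CPM at day 7 in the Col hybrid, and 162 and 98.5 CPM in the pif4 hybrid, so that both day 7 Col libraries stood apart from the other 6. THA1, a threonine aldolase, went the other way, and the term was -1.76 ± 0.29 (SE; adjusted p = 0.0091). THA1 measured 14.3 CPM at day 4 and 1.399 CPM at day 7 in the Col hybrid, and 5.27 and 0.556 CPM in the pif4 hybrid at 22 °C, a like fall in both hybrids. At 27 °C it measured 49.97 CPM at day 4 and 61.999 CPM at day 7 in the Col hybrid, and 54.4 and 16.8 CPM in the pif4 hybrid, with day 7 the higher age in the Col hybrid and the lower in the pif4 hybrid. Its term did not pass without any 1 of the 4 libraries at 27 °C, at -0.41 to -1.17. Without the Col hybrid at day 4 and 22 °C the term passed for 894 and 655 genes, and without the pif4 hybrid at day 4 and 22 °C for 893 and 651.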

How the data were processed

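Whole seedlings were sequenced as 8 libraries, 1 per hybrid, temperature and age. Per the labels' protocols, both a stranded and an unstranded TruSeq RNA kit are named, without saying which library used which. The submitters' processing notes name HTSeq 0.6.1p1, StringTie 1.3.5, Picard, HISAT2, FastQC 0.11.5 and the TAIR10 build, without roles. The deposited values are raw counts per gene for 33602 loci, of which 32835 matched the reference table.

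Genes with at least 0.876 CPM (10 counts in the library of median size) in at least 2 of 8 libraries were tested (20502). edgeR 4.0.16 in R 4.3.3 was run with TMM factors, a term for hybrid and 1 for each temperature-by-age cell, and Benjamini-Hochberg adjustment; 3 residual degrees of freedom remained, and SE is the log2 change over the square root of F. Pair ratios used a prior count of 2. DESeq2 1.42.0, other scalings and filters, thinned counts, depth as a covariate and leaving out each library were tried. The code was tested on simulated data. Hybrids pair the ages because the same hybrid was grown at both, and the hybrid term carries that block.

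The comparison, its members and the gene lists were chosen with earlier results of these data known. Named genes were the 8 largest rises and 8 largest falls with both pairs agreeing in sign and a mean of at least 5 CPM at 22 °C, up to 3 genes of smallest p per list, the 4 highest and 4 lowest differences between temperatures and between hybrids, and PIF4; further list members were named after their values were seen. One member of the Casparian strip and suberin list is counted but not reported singly here. Of the listed loci, 118 overlap a gene on the opposite strand, from which their reads may not be told apart. Promoter sequences and annotation are from RefSeq on TAIR10.1.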

Additional observations from a re-analysis of the deposited data

Results flagged for a closer look

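The results in this part are single genes whose change with age differed between temperatures or between hybrids by a test of the difference itself. Between temperatures, the change at 22 °C minus that at 27 °C was 7.69 ± 0.94 (SE; adjusted p = 0.00368) for AT3G17520, 6.88 ± 0.79 (SE; adjusted p = 0.00275) for LEA18, 6.54 ± 0.90 (SE; adjusted p = 0.00493) for LEA7 and 6.37 ± 1.16 (SE; adjusted p = 0.033) for PER1, all late embryogenesis or seed genes. In AT3G17520, LEA7 and PER1 the 27 °C day 4 libraries were the highest of the 8, while LEA18 in the pif4 hybrid was higher at 22 °C and day 7. AT3G17520 measured 46.8 CPM at day 4 and 0.492 CPM at day 7 in the Col hybrid, and 10.8 and 0.531 CPM in the pif4 hybrid at 27 °C, against 1.43 CPM at day 4 and 2.798 CPM at day 7 in the Col hybrid, and 0.703 and 4.06 CPM in the pif4 hybrid at 22 °C. The difference was -2.56 ± 0.47 (SE; adjusted p = 0.033) for EXT10, -2.28 ± 0.43 (SE; adjusted p = 0.0374) for EXT6 and -2.19 ± 0.39 (SE; adjusted p = 0.0326) for HRGP1, wall glycoproteins that fell at both temperatures and further at 22 °C. HRGP1 measured 75.9 CPM at day 4 and 2.098 CPM at day 7 in the Col hybrid, and 38.8 and 2.56 CPM in the pif4 hybrid at 22 °C and 24.99 CPM at day 4 and 5.803 CPM at day 7 in the Col hybrid, and 31.7 and 6.46 CPM in the pif4 hybrid at 27 °C. It was -2.49 ± 0.31 (SE; adjusted p = 0.00368) for AT5G03545.

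Between hybrids, the change in the pif4 hybrid minus that in the Col hybrid was 5.37 ± 0.35 (SE; adjusted p = 1.92e-08) for PRP39-2, a tetratricopeptide repeat protein gene, 5.27 ± 0.26 (SE; adjusted p = 8.96e-10) for LRR XI-23, 5.11 ± 0.25 (SE; adjusted p = 8.96e-10) for ATMAP4K ALPHA1, a protein kinase gene, and 4.66 ± 0.29 (SE; adjusted p = 8.94e-09) for SYCO ARATH, a cysteinyl-tRNA synthetase gene. Of these 4, all but PRP39-2 hold a space in their reference symbol, and SYCO ARATH measured 25.1 CPM at day 4 and 2.19 CPM at day 7 in the Col hybrid, and 30.6 and 42.9 CPM in the pif4 hybrid at 22 °C and 21.2 CPM at day 4 and 0.633 CPM at day 7 in the Col hybrid, and 23.9 and 28.3 CPM in the pif4 hybrid at 27 °C. PRP39-2 measured 17.2 CPM at day 4 and 0.262 CPM at day 7 in the Col hybrid, and 17.2 and 8.01 CPM in the pif4 hybrid at 22 °C. Both day 7 Col libraries were the lowest of the 8 for these 4 genes. Among hybrid-by-age calls of at least 8-fold, 15 of 22 hold a space, and the cause was not tested. For THA1 the value was -1.76 ± 0.29 (SE; adjusted p = 0.0091).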

How the results depend on the processing

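Of 209 genes followed singly for the change with age at 22 °C, 73 kept their direction and their side of the threshold under every one of up to 19 alternatives. One reversed: RBCS1B, from -1.11 to 0.069 with log2 library total as a covariate, where 51 others lost the call; the cause was not tested. Without the hybrid term (no replicate block), 4048 genes rose and 3879 fell at 22 °C, and the temperature difference passed for 26 and 9 genes. The 4 libraries at 22 °C alone gave 5129 and 4882, and DESeq2 3082 and 3072. Thinning to the shallowest total gave 2531 and 2368 at 22 °C, with 16311 genes left to test, and the 5 root hair genes still tested all fell. Leaving out 1 library gave 935 to 5126 rising and 1203 to 4882 falling.

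The temperature difference (43 higher, 17 lower) was less stable. It passed for 12 and 3 genes with thinned counts, 156 and 138 with no filter on low counts, 94 and 29 with the depth covariate, and 92 and 76 with the hybrid-by-age term added; DESeq2 gave 35 lower. Leaving out 1 library gave 0 to 806 higher and 0 to 1038 lower, with 0 called without the Col hybrid at 22 °C and day 4, where 1251 genes had an unadjusted p under 0.05. The hybrid difference (31 higher, 3 lower) gave 1 lower when 4 of 8 libraries had to pass the filter and 14 higher without genes whose symbol holds a space. Leaving out 1 library gave 33 to 894 higher and 5 to 655 lower. Depth limits low genes most: 1 count in the day 4 Col library is 0.716 CPM, and 1 library per condition limits every p-value.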
